A study of Vulpes vulpes with 48 samples.

Results

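Of the 12 prefrontal cortex libraries from foxes of the tame line, 5 concentrated their RNA-seq counts in fewer genes than the rest, and these are described here against the remaining 7. For each library the share of all counts held by its own 100 highest genes was computed. Libraries at 17% or more were called shifted (ID182, ID186, ID187, ID190 and ID191), and the 7 below that limit were called other (ID181, ID183, ID184, ID185, ID188, ID189 and ID192). The 5 shifted libraries are a part of 46 libraries with counts, 24 from prefrontal cortex and 22 from basal forebrain.

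The foxes were silver foxes (Vulpes vulpes), a colour form of the red fox, from a line bred for tame behaviour and a line bred for aggressive behaviour. All were males aged 1.5 years. Right-side tissue was taken: prefrontal cortex gave 12 libraries from each line, and basal forebrain gave 10 tame and 12 aggressive libraries that were analysed here. Polyadenylated RNA was sequenced. The labels give no treatment, extraction date, RNA integrity value or sequencing batch, and nothing in them sets the 5 shifted libraries apart from the other 7.

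The prefrontal cortex holds excitatory and inhibitory neurons together with glia and vessel cells, and takes part in the control of social and emotional behaviour. RNA-seq counts are relative: a library has a fixed number of reads, so when some transcripts take up more of them, all others take up less. In a bulk sample, fewer cells of a type and less RNA per cell cannot be told apart. Genes carry dog Ensembl identifiers, and no table at hand pairs these with symbols (0 of 12808 cortex identifiers matched the fox RefSeq table), so no cell type marker, mitochondrial gene or other named group could be read, and the tissue label could not be checked against markers.

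The share that defined the groups was 21.4% in ID187, 21.2% in ID191, 18.3% in ID182, 18.1% in ID186 and 17.4% in ID190. In the 7 other tame libraries it ran from 14.98% to 15.4%, with a median of 15.15%. Thus ID190 lay just inside the limit and ID184, at 15.4%, was the nearest below it. The 12 aggressive cortex libraries, which the rule did not use, ran from 14.6% to 15.55%, and the 22 forebrain libraries from 14.3% to 16.4%. All 41 libraries outside the shifted group therefore lay below 17%.

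**Figure D1:**
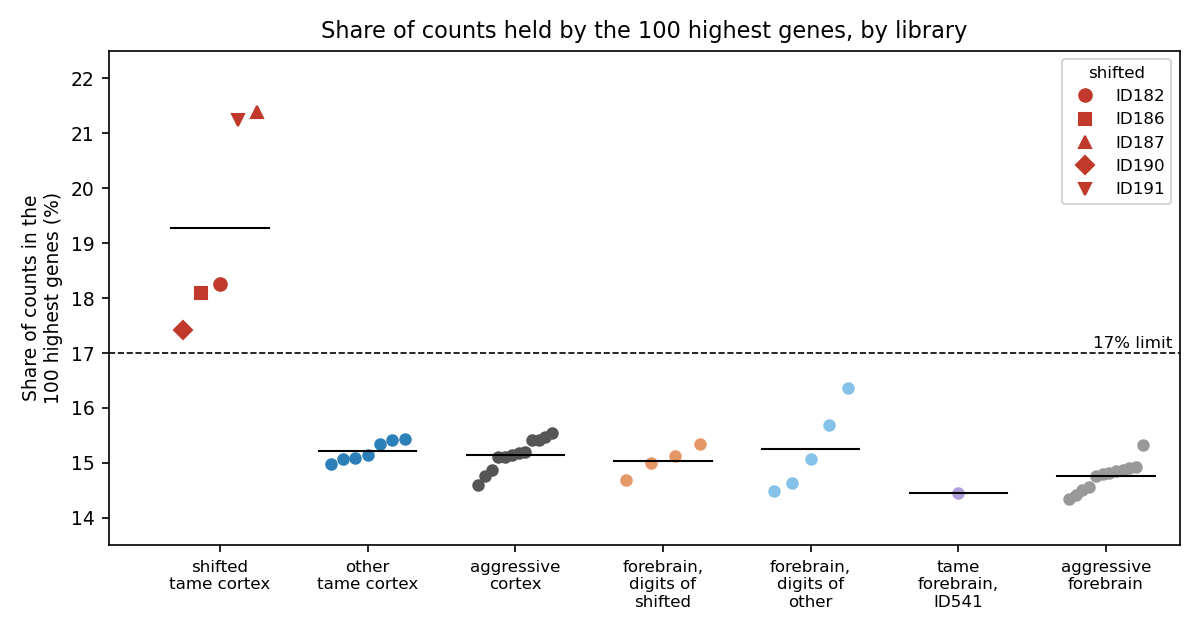
Share of counts held by the 100 highest genes (y axis, percent; the axis starts above 0) in each of the 46 libraries, grouped by tissue and line, with the tame cortex split by the 17% limit (dashed) and the tame forebrain split by the last digits of the identifier; points are libraries and horizontal lines are group means. The 5 shifted libraries lie between 17.4% and 21.4%, and every other library lies at 16.4% or below.

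Depth overlapped between the groups. Shifted libraries held 15.5 M (ID182), 8.65 M (ID186), 13.4 M (ID187), 13.6 M (ID190) and 8.98 M counts (ID191), where M stands for 1000000 counts. The other tame libraries held 7.09 to 17.2 M, with a median of 10.4 M. Means were 12.03 ± 3.06 M (SD, n = 5) and 11.7 ± 3.61 M (SD, n = 7), a difference of 0.331 M that was smaller than the spread between libraries (two-sided exact permutation test over 792 splits, p = 0.859, adjusted p = 0.859 over 2 tests; smallest p the design allows, 0.00253). No pair of tame cortex libraries looked like a duplicate of another: the closest pair, ID183 and ID184, still differed by a chi-square of 3.95 per degree of freedom.

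The same 5 libraries had a lower level at the median gene and, at equal depth, more genes with few counts. Both measures are tied to the concentration of counts that formed the groups. The median gene of the table stood at 14.7 CPM (a gene's count per 1000000 counts) in ID187, 15.8 in ID191, 23.05 in ID182, 24.2 in ID186 and 25.1 in ID190. The other tame libraries ran from 29.7 to 33.1 CPM, so the groups did not overlap. Thinned by calculation to 7.09 M counts, the total of the shallowest tame library, ID187 was expected to have 1463 genes with under 10 counts, ID191 1427, ID182 809, ID186 709 and ID190 699. Between 305 and 506 such genes were expected in the other tame group. Before thinning the ranges met, at 255 to 1164 genes in shifted and 44 to 509 in other libraries.

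The highest genes were also partly different ones. Of the 100 genes with the highest mean share in the other tame libraries, 71 were also among the 100 highest by mean share in the shifted libraries and 29 were replaced. In single libraries, ID187 kept 60 of them in its own top 100, ID191 63, ID186 73, ID182 75 and ID190 80, whereas each of the 12 aggressive cortex libraries, which did not set the list, kept 89 to 95. Each of the other 7 tame libraries kept 90 to 98 of a list made from the remaining 6. Taken as a fixed list, these 100 genes held 15.2% of counts on average in the other libraries and 17.2% in the shifted ones. Within the list 60 genes had a higher mean share in shifted libraries, while 14 were at least 2-fold lower there after scaling. The gain was spread over many genes: the 10 with the largest gain added 1.61 percentage points together and the 100 with the largest gain added 6.52, out of 22.6 points gained over 5603 genes.

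At a limit of 2-fold on group means, the shifted group stood apart from the other tame libraries mainly by lower genes. Libraries were scaled by TMM, the trimmed mean of M-values. TMM assumes that most genes are level between libraries, which may not hold here: groups did not overlap at 51% of genes. On that scale 3286 of 12745 genes (25.8%) were at least 2-fold lower in the shifted libraries and 281 (2.2%) were at least 2-fold higher, by the difference of mean log2 CPM. Negative differences also reached further. At 4-fold the numbers were 1311 lower (10.3%) and 2 higher (0.0157%). At 8-fold they were 310 lower (2.43%) and 0 higher, and 25 genes (0.196%) were at least 16-fold lower. The number higher by 2-fold rested on single libraries: it was 48 without ID187 and 72 without ID191, but 495 without ID182, 665 without ID186 and 710 without ID190. The groups were formed from these counts, so none of these differences carries a test, and the counts describe these 12 libraries.

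The distribution of differences was lopsided, with its peak above 0 and a long lower tail. Its median was 0.01 on the log2 scale, its upper quartile 0.59 and its 95th percentile 0.92, whereas its lower quartile was -1.04 and its 5th percentile -2.59. The interval from 0.5 to 1 log2 unit held 3519 genes. Small positive differences were therefore common and large ones rare. The position of 0 depends on the scaling: without a TMM factor, on library totals alone, the median over all genes was -0.18, with 32 genes at least 2-fold higher and 3706 lower.

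Groups did not overlap at 3587 genes (28.1%) where all 5 shifted libraries lay below all 7 other libraries, and at 2911 genes (22.8%) where all 5 lay above. Together that was 51% of the genes. Which direction held more genes depended on the scaling: there were 3247 lower and 3444 higher genes with upper-quartile scaling, and 3950 lower and 2185 higher on library totals. Among the 3286 genes at least 2-fold lower, 2980 (90.7%) had groups that did not overlap, and among the 281 at least 2-fold higher the share was 68%. The aggressive cortex libraries, which took no part in the split, lay with the other tame libraries at most of these genes. At 3069 of the 3587 lower genes (85.6%) the shifted libraries were also below all 12 aggressive libraries, and at 2166 of the 2911 higher genes (74.4%) they were above all 12. Over all genes these shares were 25.6% and 19.7%. The shares over all genes include the chosen genes, and part of the gap between the shares comes from that choice.

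The 5 shifted libraries were not equal. Against the mean of the 7 other tame libraries, ID187 had 4450 genes at least 2-fold lower (34.9%) and ID191 4259 (33.4%). ID182 had 2755 (21.6%), ID186 2186 (17.2%) and ID190 1667 (13.1%). As a background, each of the other tame libraries was set against the mean of the remaining 6, and had 31 to 114 such genes (0.243% to 0.895%). The aggressive cortex libraries had 34 to 219. Every shifted library was thus far outside the range of the other 19 cortex libraries in the number of lower genes.

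For higher genes, the libraries divided differently. ID187 had 3021 genes at least 2-fold higher (23.7%) and ID191 2446 (19.2%), but ID182 had 349 (2.74%), ID186 108 (0.847%) and ID190 35 (0.275%). On the same measure the other tame libraries had 18 to 372 (0.141% to 2.92%) and the aggressive cortex libraries 0.204% to 1.48%, so at this limit ID182, ID186 and ID190 lay within the range of the other tame libraries. The highest of those, ID185 with 372, stood apart from the next, with 43.

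**Figure D2:**
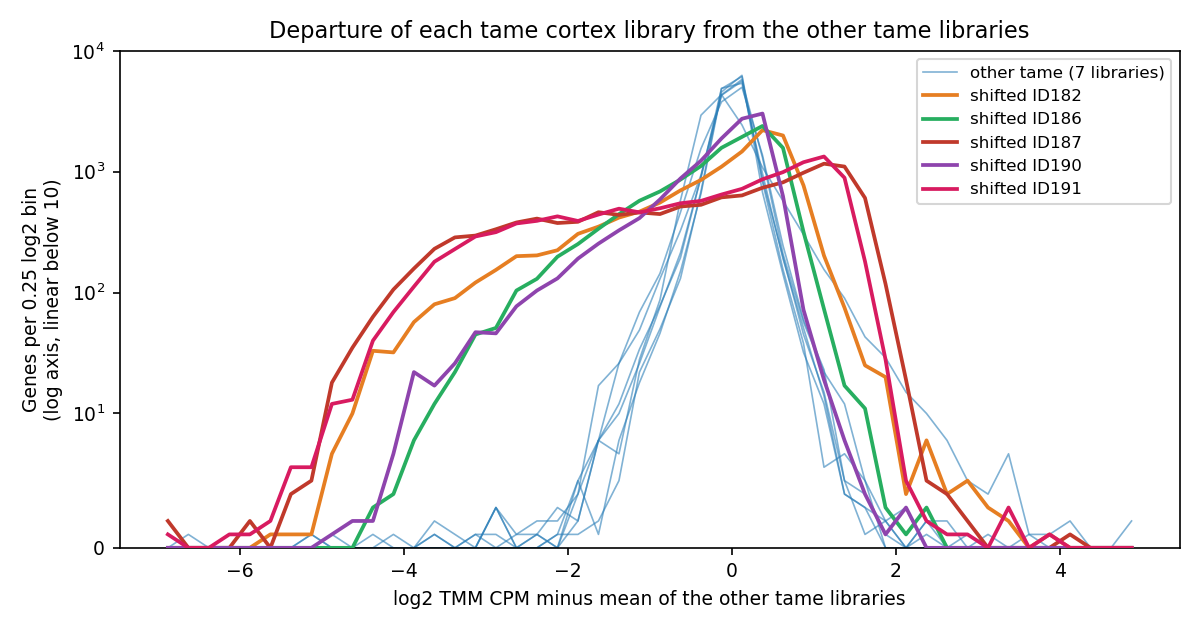
Number of genes (y axis, log scale above 10 and linear below) by log2 TMM CPM minus the mean of the other tame cortex libraries (x axis, bins of 0.25), 1 line per tame cortex library; each of the 7 other libraries is set against the remaining 6, and values beyond the axis are counted in the outermost bin. The other libraries peak sharply at 0, and the shifted libraries have a long lower tail, longest in ID187 and ID191, which also peak above 0.

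The size of the negative differences did not follow the number of lower genes exactly. At 8-fold, ID187 had 1205 lower genes, ID191 963, ID182 433, ID190 124 and ID186 94. ID190 thus had fewer genes than ID186 past 2-fold, and more past 8-fold. Over the 3286 genes at least 2-fold lower in the group mean, the median log2 difference was -2.67 in ID187, -2.50 in ID191, -1.66 in ID182, -1.21 in ID186 and -0.999 in ID190. The medians over all genes in the same libraries lay between -0.06 and 0.08. Over the 281 genes at least 2-fold higher, the median was 1.67 in ID187, 1.50 in ID191, 0.82 in ID182, 0.73 in ID186 and 0.53 in ID190.

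The lower genes of the 5 libraries formed largely nested sets. A total of 1462 genes (11.5%) were at least 2-fold below the mean of the other libraries in all 5 shifted libraries, and 1199 genes were so in ID187 and ID191 but in none of the remaining 3. Another 586 genes were lower in ID187, ID191 and ID182, and 519 in those 3 and ID186. By contrast, 20 genes passed the limit in ID182 alone, 35 in ID186 alone and 10 in ID190 alone, against 390 in ID187 alone. For higher genes, 2126 (16.7%) passed the limit in exactly 2 shifted libraries and 3 genes did in all 5. All 5 libraries were set against the same 7 other libraries, so part of this sharing comes from the common reference.

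Pairwise distances showed the same grades. The root mean square difference over all genes was 0.471 log2 units between ID187 and ID191, and 0.394 between ID186 and ID190. ID182 was nearest to ID186, at 0.525. Pairs of the other tame libraries were 0.245 to 0.533 apart, with a median of 0.352. These 3 shifted pairs, the closest ones, were within that range. All remaining shifted pairs were above it, at 0.556 to 1.11. From ID187 to ID190 the distance was 1.11, and from ID187 to the nearest library outside the shifted group it was 1.59. Every shifted library had another shifted library as its nearest neighbour among the 24 cortex libraries. A principal component analysis of the 12 tame libraries put 83.7% of the variance on a first axis, with scores of 135 in ID187, 121 in ID191, 68.02 in ID182, 35.6 in ID186 and 24.8 in ID190, and of -63.5 to -46.0 in the others. The second axis held 4.58% and ran from -25.7 in ID187 to 37.1 in ID182, so these shifted libraries were its ends.

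The lower genes were 25.8% of the 12745 genes, and held less than that share of counts in every cortex library. The 3286 genes at least 2-fold lower held 2.43% of all counts in ID187, 3.01% in ID191, 6.70% in ID182, 9.14% in ID186 and 10.7% in ID190. They held 21.2% to 24.3% in the other tame libraries and 19.9% to 24.4% in the aggressive cortex libraries. The 281 higher genes held 9.39% in ID187, 8.75% in ID191, 6.33% in ID182, 6.07% in ID186 and 5.56% in ID190. They held 3.37% to 4.11% in the other tame libraries and 3.49% to 4.56% in the aggressive cortex libraries. The genes were chosen on the tame cortex libraries, so only the aggressive and forebrain values are free of that choice. In forebrain libraries with the digits of shifted ones the lower genes held 20.2% to 22.2%, and in those with the digits of other ones 17.3% to 22.3%. All of these lay above every shifted cortex library. The higher genes held 3.91% to 4.29% in forebrain libraries with the digits of shifted ones. In those with the digits of other ones they held 3.79% to 4.90%, nearer to the 5.56% of ID190.

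**Figure D3:**
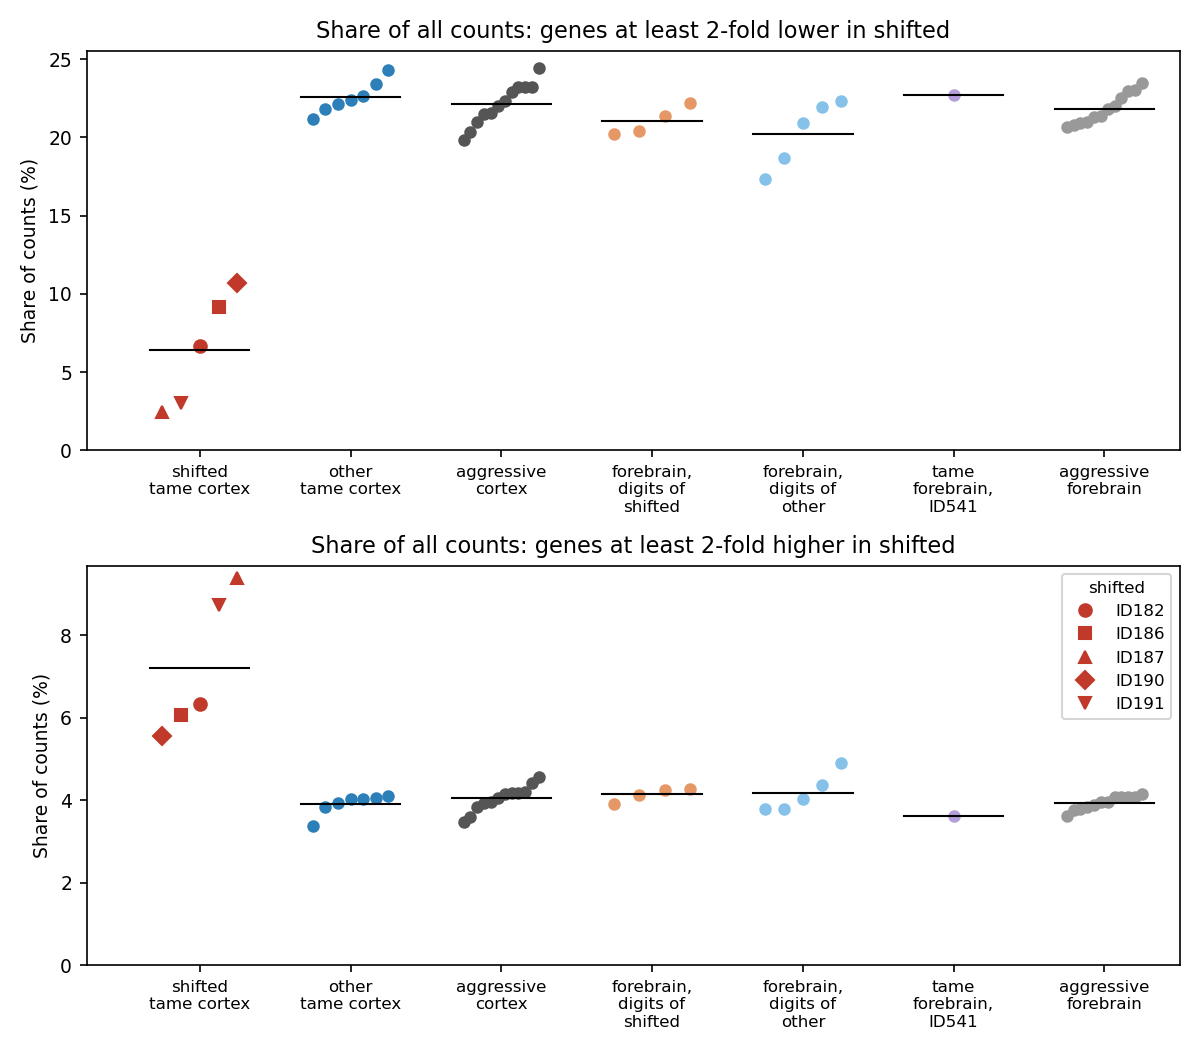
Share of all counts (y axis, percent) held by the genes at least 2-fold lower (top) and at least 2-fold higher (bottom) in shifted than in other tame cortex, in each of 46 libraries; points are libraries and horizontal lines are group means. In the top panel the shifted libraries lie between 2.43% and 10.7%, and every other cortex library lies at 19.85% or above.

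Lower genes were found at all levels of abundance. Genes were cut into 10 equal groups by their level in the aggressive cortex libraries. In group 1, the lowest (median 1.81 CPM), 22.7% were at least 2-fold lower in the shifted group, in group 8 (74.2 CPM) 28.6%, and in group 10, the highest (275 CPM), 21.02%. The latter 2 were the highest and lowest of the 10 shares. The median difference was between -0.17 and 0.01 in groups 1 to 8, 0.26 in group 9 and 0.36 in group 10, and the upper quartile was 0.78 in group 10 against 0.45 in group 3. Across the 12745 genes, the difference and the level in aggressive cortex were nearly unrelated (Pearson 0.0376, Spearman 0.084). Genes are not independent replicates, and these values are descriptions.

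**Figure D4:**
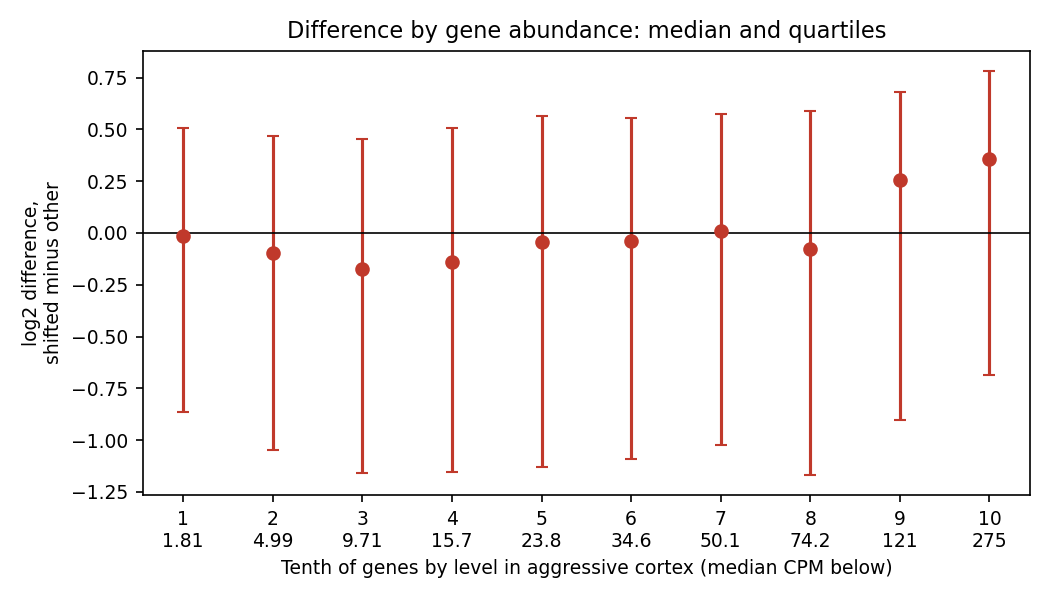
Log2 difference between shifted and other tame cortex libraries (y axis) in 10 equal groups of genes ordered by level in the aggressive cortex libraries (x axis; the number below is the median CPM of the group); points are medians and bars run from the lower to the upper quartile. The lower quartile lies between -1.17 and -0.69 in all 10 groups, and the median is highest, at 0.36, among the most abundant genes.

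Other properties that could be read without gene names were compared between the classes. The 1311 genes at least 4-fold lower had a median level of 31.6 CPM in aggressive cortex, against 28.95 CPM over all genes. Their median SD between the 12 aggressive libraries was 0.19 log2 units, against 0.18 over all genes. The 281 higher genes varied more there, at 0.24. Deposited counts with fractions, which can arise when reads are shared between genes, were present in 157 of the 3286 lower genes (4.78%), in 22 of the 281 higher genes (7.83%) and in 637 of all 12745 genes. Genes with all cortex values identical to another gene made up 2.86% of the lower genes, 5.34% of the higher genes and 3.96% of all genes. The difference between regions in aggressive foxes, forebrain minus cortex, had a median of 0.23 log2 units over the lower genes and 0.25 over all genes with a value, and across 12588 genes it correlated with the shift at a Pearson r of 0.0341. Tissues were counted in separate tables, so this difference is set across tables scaled separately.

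The individual genes given next were picked as extremes and do not show the usual size of the differences. The 2 genes with the largest and the 2 with the smallest log2 difference are given. They were taken from 5461 genes with groups that did not overlap and a mean of at least 10 CPM over the 12 tame libraries. Lack of overlap at these genes was therefore a condition of the choice. ENSCAFG00000023467 passed the limit, at 10.6 CPM, only through the shifted libraries, as its mean in the other libraries was 6.14 CPM. The 2 lower genes passed only through the other libraries. The counts of all 4 are partly fractional in the deposited table, and their values may include reads divided with a further gene.

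The most negative difference was at ENSCAFG00000000245. It stood at 1.70 CPM in ID187, 1.92 in ID182, 3.29 in ID191, 3.33 in ID190 and 5.92 in ID186. In the other tame libraries it ran from 94.5 to 126 CPM, with a median of 103. All 5 shifted libraries were far below, and the order among them was not that of the share of the top 100 genes. Group means were 3.23 ± 1.68 CPM (SD, n = 5) and 105.7 ± 10.3 CPM (SD, n = 7), a log2 difference of -5.09 (SE 0.31), or 34.0-fold. The lowest count behind these values was 18, in ID187. In the aggressive cortex libraries the gene ran from 66.4 to 118 CPM.

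ENSCAFG00000003549 was next. It stood at 4.10 CPM in ID182, 6.04 in ID191, 7.30 in ID190, 7.86 in ID187 and 8.77 in ID186. Values in the other tame group ran from 126 to 200.2 CPM, with a median of 185.9, and the aggressive ones from 114 to 191.5 CPM. Means were 6.81 ± 1.81 (SD, n = 5) and 174 ± 27.6 CPM (SD, n = 7), a log2 difference of -4.67 (SE 0.21), or 25.4-fold. At both genes ID190, which departed least over all genes, stood close to ID191.

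Positive differences were smaller, and the highest of any gene, with no minimum level, was 2.70 on the log2 scale. ENSCAFG00000023467 stood at 22.6 CPM in ID187, 21.96 in ID191, 17.7 in ID182, 11.96 in ID186 and 10.4 in ID190. The other tame libraries ran from 4.54 to 9.93 CPM, with a median of 5.54, so the gap between ID190 and the highest other library, ID181, was narrow. The log2 difference was 1.42 (SE 0.27), or 2.69-fold, and the aggressive libraries ran from 3.83 to 7.75 CPM. ENSCAFG00000020247 stood at 37.2 CPM in ID191, 32.8 in ID187, 25.5 in ID182, 22.9 in ID186 and 18.4 in ID190. In the other 7 tame libraries it ran from 4.90 to 14.7 CPM, with a median of 12.2. Its log2 difference was 1.28 (SE 0.28), or 2.44-fold. The aggressive libraries ran from 6.94 to 25.1 CPM, which overlaps the shifted group.

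**Figure D5:**
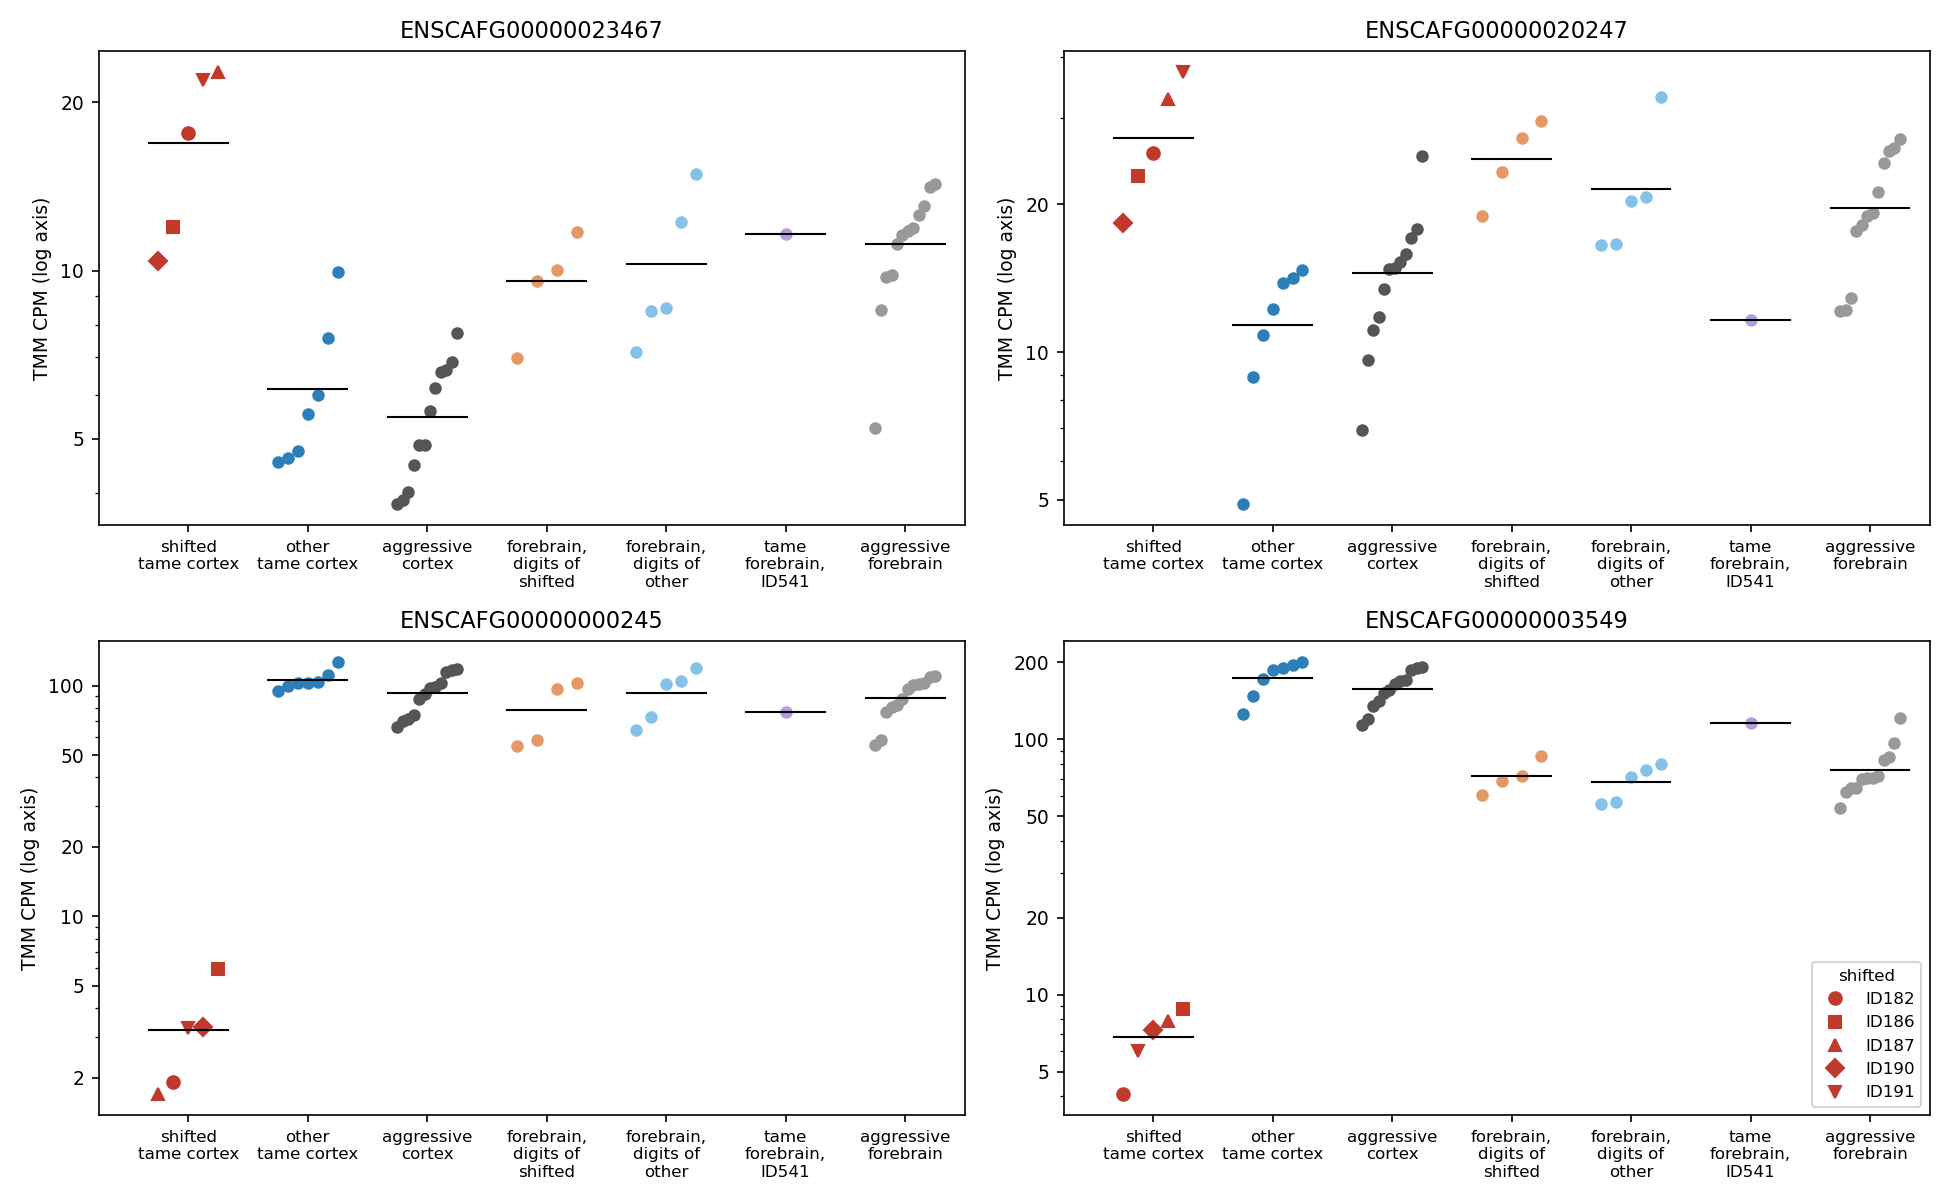
TMM CPM (y axis, log scale) of the 4 genes in every cortex and forebrain library; points are libraries and horizontal lines are group means, and cortex and forebrain were scaled separately. At ENSCAFG00000000245 and ENSCAFG00000003549 the shifted libraries lie at 8.77 CPM or below, under every other library.

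Whether the departure was also present in the basal forebrain was examined in libraries that the rule did not use. Forebrain identifiers end in the same digits as cortex identifiers (ID482 and ID182, for example). The labels do not state that such libraries come from the same fox, and the column names give each library its own fox number. The comparison therefore holds only if such libraries do share a fox. The counterparts of shifted libraries were ID482, ID486, ID487 and ID491, and those of other libraries ID483, ID484, ID485, ID489 and ID492. The counterparts of ID188 and ID190 were not analysed here, and no forebrain library has the digits of ID181. Tame library ID541 has no counterpart by its digits.

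The forebrain counterparts of shifted libraries lay among the other forebrain libraries. The share of the 100 highest genes was 15.3% in ID482, 15.1% in ID486, 14.7% in ID487 and 14.99% in ID491, against 16.4% in ID483, 15.1% in ID484, 15.7% in ID485, 14.6% in ID489 and 14.5% in ID492. All 4 values lay inside the range of the other 5. Means were 15.04 ± 0.269% (SD, n = 4) and 15.25 ± 0.783% (SD, n = 5), a difference of -0.216 percentage points (two-sided exact permutation test over 126 splits, p = 0.667, adjusted p = 0.859 over 2 tests; smallest p the design allows, 0.0159). Without ID483, the highest library, the difference was 0.0636 points (exact permutation p = 0.829).

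No forebrain gene passed an adjusted p of 0.05 between these counterparts (0 of 12965, 0%; edgeR quasi-likelihood test with Benjamini-Hochberg adjustment, smallest adjusted p = 0.904), and the unadjusted p was under 0.05 at 587 (4.53%). With DESeq2 there were 2 calls (737 unadjusted) and with limma-voom 0 (901 unadjusted). Groups did not overlap at 206 forebrain genes (1.59%). With libraries in random order, a fraction of 0.0159 of genes is expected for these group sizes, so the forebrain share was at that background. In the cortex split, which was made on the cortex counts themselves, the share was 51%, where the group sizes give 0.00253. Of the 3259 cortex-lower genes that were also compared in the forebrain, 11 were at least 2-fold lower (0.338%) and 6 at least 2-fold higher there (0.184%), with a median log2 difference of 0.04. Over all 12599 shared genes the numbers were 77 lower (0.611%) and 19 higher (0.151%), and the median was 0.00. Across these genes the cortex and forebrain differences had a Pearson correlation of -0.149, which is a description only.

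At the named genes the forebrain counterparts overlapped. ENSCAFG00000000245 ran from 54.96 to 102 CPM in the counterparts of shifted libraries and from 64.2 to 119 CPM in those of other libraries (log2 fold change -0.25, edgeR adjusted p = 0.919). ENSCAFG00000003549 ran from 60.4 to 85.7 CPM and from 55.6 to 80.1 CPM (log2 fold change 0.07, edgeR adjusted p = 0.957). Both genes were thus well detected in the forebrain of all 9 libraries. ENSCAFG00000023467 ran from 6.98 to 11.7 and from 7.16 to 14.9 CPM (edgeR adjusted p = 0.965), and ENSCAFG00000020247 from 18.96 to 29.6 and from 16.6 to 33.2 CPM (edgeR adjusted p = 0.925). A p above the threshold does not show that the groups are alike.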

How the data were processed

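The authors made and deposited 1 table per tissue of estimated counts per gene, which were not normalized; genes have dog identifiers per the file headers. Per the submitters' processing notes, CASAVA 1.8.2, FastQC, Trimmomatic, BWA, bedtools and edgeR were used and the build named is canFam3; their order, settings and any filter are not given in the sources used here. Fox reads counted on dog genes can be lost where the genomes differ. Values that were not whole made up 4.36% of the cortex counts, in 640 of 12808 genes, and 505 genes shared all values with another gene.

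Counts were rounded. Genes passed filterByExpr of edgeR 4.0.16 (minimum count 10, groups of 5 and 7), which removed 63 genes and left 12745. A gene could pass through the higher group alone. Libraries were scaled by TMM over the 12 tame libraries, with the aggressive ones set to the same reference, and log2 CPM used a prior count of 2. Shifted and other libraries were separated by the share of counts itself, so that contrast has no test. SE is from the spread of log2 CPM between libraries. Forebrain counterparts were compared with edgeR's quasi-likelihood test (robust, R 4.3.3), DESeq2 1.42.0 and limma 3.58.1. Totals and shares were compared by exact permutation tests. The functions were tested on simulated data with equal numbers of raised and lowered genes, which does not cover a difference as lopsided as that in the cortex. Each library has its own fox number in the column names; p-values measure the spread between these libraries.

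The members, lists and tests were chosen with earlier results of these data known. The rule for genes to name asked for symbols; as none could be had, its fallback of 2 identifiers in each direction was used. Cell type marker and gene group lists of symbols could not be read. Counterparts of ID188 and ID190 were not analysed here. Alternatives covered scaling, filters, prior counts, whole-count genes, the number of highest genes in the share, and each library left out.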

Additional observations from a re-analysis of the deposited data

Results flagged for a closer look

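In 38 groups of 4 to 10 libraries the gap between the most extreme library and the next was compared with the group's range; 3 stood out, and 1.9 would by chance. Among the other tame cortex libraries, ID185 had 372 genes at least 2-fold above the mean of the remaining 6, where the next library had 43. In that group ID181 had the lowest share of counts in the 281 genes higher in shifted libraries, 3.37%, where the next library had 3.84%. Among the forebrain counterparts of other libraries, ID484 had the highest level of ENSCAFG00000020247, 33.2 CPM, where the next had 20.7 CPM.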

How the results depend on the processing

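The number of genes at least 2-fold lower stayed within 1.5 times the reported value in all scaling, filter, prior count and whole-count settings and in all 12 fits without 1 library. So did the numbers with groups that did not overlap, which take no prior count, but with upper-quartile scaling the higher genes among them outnumbered the lower (3444 against 3247). The number at least 2-fold higher did not: it was 600 with upper-quartile scaling, 32 on library totals and 129 over genes with a mean of at least 5 CPM, against 281. Without 1 library it ran from 48 (without ID187) to 710 (without ID190), and was 72 without ID191, 665 without ID186 and 495 without ID182. The lower genes then ran from 2934 to 3619. The difference in share was 4.06 points for the 100 highest genes, 0.935 for the 10 highest, 7.32 for the 500 highest and 8.35 for the 1000 highest, which count different genes; ranking by the 50 or 500 highest gave the same 5 libraries. The difference in total counts ran from -0.544 to 1.25 M without 1 library, with exact permutation p from 0.494 to 1, and changed sign without ID181 (-0.184), ID182 (-0.544), ID184 (-0.437), ID187 (-0.00239) or ID190 (-0.0682). The forebrain share difference ran from -0.407 to 0.0636 points. DESeq2 called 2 forebrain genes, ENSCAFG00000001833 (log2 fold change 1.11, DESeq2 adjusted p = 0.0477) and ENSCAFG00000025401 (-1.02, adjusted p = 0.0477), named after their values were seen; the other settings gave 0, with smallest adjusted p from 0.579 to 1. The cause of these moves was not tested. Shifted and other libraries of a tissue share no replicate numbers, so these groups could not be paired. Pairing cortex with forebrain libraries would rest on the shared digits, which the labels do not tie to the same fox.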

Other observations

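Library ID185, in the tame group that was not shifted, had aggressive library ID238 as its nearest neighbour, at 0.412 log2 units. ID181, in the same group, also had an aggressive library nearest, ID230 at 0.345. At ID238, 1.48% of genes were at least 2-fold above the mean of the other tame libraries, the highest share among the 12 aggressive cortex libraries, whose median was 0.259%.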
